A study of Mus musculus with 12 samples.

Results

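The subject of this report is a pair of induced pluripotent stem (iPS) lines made from the tail-tip fibroblasts of adult mice, and how far each had moved from a fibroblast pattern of gene expression to that of embryonic stem (ES) cells. The lines were taken by their titles and set against the ES and MEF arrays, so 4 of the study's 12 arrays and 2 of its 9 iPS lines were described in depth. The study asked whether fibroblasts can be reprogrammed with Bmi1, a Polycomb protein, or with activators of the hedgehog pathway, each together with Oct4. Each RNA sample was hybridised to 1 one-colour array. The ES cells came from 129/Ola mice, and MEF are mouse embryonic fibroblasts with no treatment named in the labels. Both tail-tip lines had received oxysterol, an oxidised cholesterol derivative that activates hedgehog signalling, and Oct4 (Pou5f1). The other 7 lines came from embryonic fibroblasts given Oct4 with Bmi1, with Shh, with oxysterol or with purmorphamine. The remaining array held spheres grown from embryonic fibroblasts transduced with Bmi1 alone, labelled as resembling neural stem cells. No array of untreated tail-tip fibroblasts was used here, so MEF, which differ in age and body site, stand in for the starting cells. The labels name no strain for the tail-tip lines and do not say whether line 1 and line 2 came from separate animals, so the p-values below measure only the spread between these samples.

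Reprogramming to pluripotency requires a somatic cell to switch on a network of transcription factors centred on Oct4, Sox2 and Nanog, and to switch off the genes that define its former type. In fibroblasts the latter include collagens and other matrix genes, mesenchymal transcription factors and the contractile cytoskeleton. Pluripotent cells are epithelial in character, express several germline genes and are known for a weak interferon response and low class I antigen presentation. Partly reprogrammed lines can keep genes of the starting cell or fail to activate genes of ES cells.

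Levels are given as log2 of the processed signal relative to the 75th percentile of the gene spots on the same array, so a level of 0 equals that percentile. The 75th percentile was 1597 intensity units for ES, 1877 for MEF, 2156 for line 1 and 2139 for line 2, and 64.93%, 72.84%, 76.98% and 72.61% of spots were well above background. Both tail-tip arrays lay on another slide than the ES and MEF arrays, so slide and group cannot be told apart in the model of 8 groups. A model of 5 classes, with the 7 embryonic lines as 1 class, allowed slide as a fixed block. ES and MEF were 1 array each, and all lines were measured against those same arrays, so the error of a reference value is not known and enters every line alike.

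Both lines expressed the pluripotency markers at about the ES level. Pou5f1 was at 3.62 in ES, -6.66 in MEF, 4.08 in line 1 and 3.35 in line 2. Sox2 was at 3.71, -1.16, 4.08 and 4.01 in the same order, and Nanog at 5.14, -3.96, 4.88 and 4.86. All 6 pluripotency markers were well above background in both lines. On the 1 MEF array 5 of 6 were so too, at lower levels. The fibroblast markers differed between the lines. Their median level over 7 genes was -3.83 in ES, 2.71 in MEF, -2.56 in line 1 and -0.05 in line 2, and 5 of 7 were well above background in line 1 against 6 of 7 in line 2. The collagen gene Col1a2 was at 0.18 in ES, 5.16 in MEF, 0.00 in line 1 and 4.84 in line 2, while the surface glycoprotein gene Thy1 was at 0.49, 4.77, 0.55 and -0.05. Another Thy1 probe was at -7.17, 0.37, -5.26 and -3.56, so line 2 was above ES there. The MEF spot of Col1a2 was saturated, its probe holds the TCTG repeat described with the genes beyond ES, and another Col1a2 probe was well above background in MEF only. In such bulk samples fewer cells of a type and less RNA per cell cannot be told apart. Among markers of other cell types, the keratinocyte gene Trp63 was well above background in line 2 only, at -2.18. The other keratinocyte markers were well above background on all 4 arrays. Krt5 was at 0.93 in ES, 1.66 in MEF, -0.22 in line 1 and 2.17 in line 2, and Krt14 at -2.70, -3.58, -3.14 and -2.74. The neural gene Sox1 was well above background in the 2 tail-tip lines only among these 4 arrays, at -4.33 and -1.16. The other neural marker, Pax6, was so in ES, at -2.03, and lower in the lines, at -2.56 and -3.76. Of the macrophage and leukocyte markers, Ptprc was below that limit on all 4 arrays. Csf1r was above the limit in MEF and both lines, at -4.95, -5.02 and -5.27, and below it in ES at a similar level of -5.14. Cd68 was above the limit on all 4, at 1.73 in ES, 0.08 in MEF, 1.17 in line 1 and 1.74 in line 2. Over the 6 genes of the macrophage and leukocyte list that were higher in MEF, the median signal was 4.67% of MEF in line 1 and 16.1% in line 2. The part of such cells in the values of either line was not tested.

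Of 25316 genes measured on all 4 arrays, 3103 (12.3%) were at least 4-fold higher in ES than in MEF and 2323 (9.18%) at least 4-fold higher in MEF. The median difference was 2.95 log2 units in the first set and 3.09 in the other. The genes nearest to the limit were Zfp985 at 2.0002 and Cmtm8 at 1.9999 log2 units on the ES side, and Tceal1 at 2.0012 and Phc2 at 1.9983 on the MEF side. For each gene, the percent moved is the distance of a line from MEF as a share of the distance of ES from MEF, on the log2 scale, so 0 is the MEF level and 100 the ES level. Signals under a common floor of -5.36, the highest detection floor of the 4 arrays, were first raised to it.

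The activation of ES genes was alike in the 2 lines, and the loss of MEF genes was not. Over the 3103 genes higher in ES, the median moved was 83.0% in line 1 (quartiles 49.2 and 105.1) and 77.4% in line 2 (49.3 and 97.1). Over the 2323 genes higher in MEF, it was 87.0% in line 1 (58.6 and 100) but 57.2% in line 2 (34.2 and 82.0). On this side 1245 genes (53.6%) lay within 25 points of ES in line 1 and 679 (29.2%) in line 2, while 186 (8.01%) and 389 (16.7%) had moved by under 25%. Line 2 had the lowest median of the 9 iPS lines on the MEF side, next to 64.8% in purmorphamine-Oct4 line 2, and the other 6 embryonic lines ran from 76.8% to 95%. Purmorphamine-Oct4 line 1, the only other iPS line on the slide of the tail-tip lines, was at 84.9% for the ES side and 94.6% for the MEF side.

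**Figure D1:**
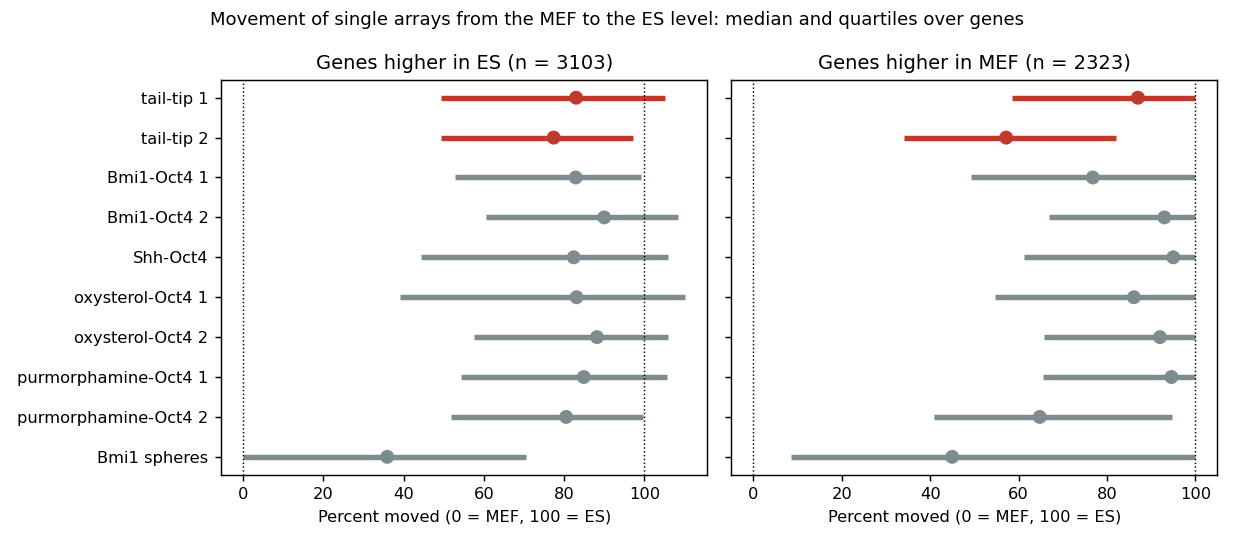
Percent moved from the MEF level (0) to the ES level (100) on each array, with the tail-tip lines in red and the other iPS lines and the Bmi1 spheres in grey. Points are medians over genes and bars the quartiles; line 2 sits at 57.2% for genes higher in MEF, left of line 1 at 87.0%.

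The 2 tail-tip lines did not differ detectably from the 7 embryonic lines as a group. The mean of the line medians was 80.2% ± 4.02 (SD, n = 2) against 84.6% ± 3.37 (SD, n = 7) for genes higher in ES, a difference of -4.35 points (exact two-sided permutation test, p = 0.167, adjusted p = 0.222). For genes higher in MEF it was 72.1% ± 21.1 (SD, n = 2) against 86.1% ± 11.4 (SD, n = 7), a difference of -13.9 points (exact permutation p = 0.222, adjusted p = 0.222). With 36 possible splits the smallest p is 0.0278. Without line 2 the difference on the MEF side turned to 0.992 points, so its direction rested on that line.

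Genes called against MEF by limma with Benjamini-Hochberg adjustment, at an adjusted p under 0.05, numbered 906 higher in the tail-tip lines (3.57% of 25393 genes tested) and 205 lower (0.807%). The median over all genes was 0.37 log2 units. The split depended on the scaling, with 598 higher and 292 lower after quantile normalization and 688 and 296 after normexp background correction. The spread came from the 4 pairs of lines, and MEF was assumed to vary as they do. With slide as a fixed block in a model of 5 classes 378 genes passed. Leaving out line 1 gave 276 genes, leaving out line 2 gave 552, and leaving out either purmorphamine-Oct4 line gave 597. The largest called rises were those of Platr10, an ES-cell transcript that does not code for protein, Zfp42 (Rex1), the phospholipase gene Pla2g1b, the chromatin factor gene Cecr2 and the E-cadherin gene Cdh1. Zfp42 was at 4.79 in line 1 and 4.14 in line 2 and not well above background in MEF, at least 2550-fold higher (limma adjusted p = 0.00121). Cdh1 was at 3.33 and 2.84, at least 980-fold above MEF (limma adjusted p = 0.00121). Such bounds set the mean of both lines against the lowest reliable signal of the MEF array. The largest called falls were those of the mast cell protease gene Mcpt8, the antioxidant gene Sod3, the Wnt inhibitor gene Frzb, the matrix gene Postn and the fibroblast protease gene Fap. The call of Mcpt8 (limma adjusted p = 0.0430) was lost in 9 of 21 alternatives, where it ran from 0.00856 to 0.146. Postn was at 0.64 in MEF and not well above background in ES or in either line, at least 115-fold lower in the lines (limma adjusted p = 0.0139). Fap was likewise at -0.39 in MEF only, at least 56.2-fold lower (limma adjusted p = 0.00446). The MEF array also entered the choice of genes higher in ES or MEF, so these calls and that choice are not independent of each other.

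The pluripotency genes had reached ES in both lines. Of 37 measured genes of this list 29 were at least 4-fold higher in ES, their median moved was 105.4% in line 1 and 96.9% in line 2, and 27 lay within 25 points of ES in both. Of the 37, 27 rose against MEF (limma adjusted p under 0.05), against 3.57% of all genes, and 0 fell, with a median difference of 5.6 log2 units against 0.37 over all genes. Sall4, a partner of Oct4, was at 5.21 in ES, -6.43 in MEF, 4.76 in line 1 and 4.94 in line 2, and the orphan receptor gene Esrrb at 4.6, -5.97, 4.72 and 4.35. Pou5f1 rose by 10.37 log2 units (SE 0.583, limma adjusted p = 0.00168), Sox2 by 5.20 (SE 0.455, limma adjusted p = 0.00479) and Nanog by 8.83 (SE 0.590, limma adjusted p = 0.00285). Oct4 was also a factor supplied to the cells. The exception in line 2 was Dppa3 (Stella), a maternal and germline gene, at -1.89 in ES, -1.21 in line 1 and -3.81 in line 2, where it had moved by 44.6% against 119.6% in line 1. The other embryonic lines ran from 0.0 to 158.2% for this gene.

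Epithelial and germline genes were likewise near ES in both lines. Of 26 epithelial genes 14 were higher in ES, with medians of 100.6% and 99.2%, and 12 of the 26 rose against MEF (limma), where 3.57% of all genes did. The claudin gene Cldn6 was at 4.57 in ES, -4.10 in MEF, 2.51 in line 1 and 3.1 in line 2, and Cldn7 at 3.19, -8.86, 1.77 and 3.08. The keratin gene Krt18 stayed low in line 1, at 2.04 in ES, -0.50 in MEF, -0.20 in line 1 and 1.12 in line 2. Of 24 germline and 2-cell stage genes 15 were higher in ES, with medians of 111.0% and 98.7%, and 16 of the 24 rose against MEF (limma), again beside 3.57% of all genes. Rhox5, a reproductive homeobox gene on the X chromosome, was at 2.01 in ES, -4.62 in MEF, 3.97 in line 1 and 1.06 in line 2. Line 1 was the highest of all 9 lines for Rhox5, at 129.6% moved, where the embryonic lines ran from 63.8 to 94.5%. Zscan4c, of a family active at the 2-cell stage and in a small part of ES cells at any time, was at 1.69 in ES, -4.79 in MEF, 4.21 in line 1 and 3.27 in line 2. Its probe can also bind other members of that family, as can that of Usp17la, a deubiquitinase gene at 1.64, -2.45, 3.85 and 4.28.

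Fibroblast genes separated the lines. Of 40 matrix genes 30 were higher in MEF, and their median moved was 100% in line 1 and 41.5% in line 2, against a median of 93.5% in the 7 embryonic lines. At least 75% was reached by 25 genes in line 1 and 6 in line 2. Because a percentage on the log2 scale hides how much signal is left, the signal was also set against MEF on the linear scale. Over these 30 genes the median signal was 2.03% of that in MEF in line 1, 2.56% in ES and 15.1% in line 2. Line 2 was the higher line for 27 of the 30, and for 1714 of all 2323 genes higher in MEF. Thbs1, an adhesive matrix glycoprotein gene, was at -7.22 in ES, 4.92 in MEF, -7.08 in line 1 and 2.22 in line 2. The collagen-binding proteoglycan gene Dcn was at -7.34, 4.59, -8.77 and 1.96, and the collagen cross-linking enzyme gene Lox at -7.09, 3.93, -6.70 and 2.38. All 3 were below the background limit in ES and line 1 and well above it in line 2. Of the 40 genes 2 fell against MEF by limma, Fap and Postn, where 0.807% of all genes did. Line 2 was uneven within this list. On the probes used, Fap, Postn and Thy1 were at or past the ES level. Another Thy1 probe was well above background in both lines and not in ES, at -7.17 in ES, 0.37 in MEF, -5.26 in line 1 and -3.56 in line 2. The matrix protein gene Fbln2 was at 1.02 in ES, 4.56 in MEF, 2.5 in line 1 and 4.85 in line 2. Col1a2, Col3a1 and Timp3 had also moved by under 10%, but their probes hold the TCTG repeat letters, and the MEF spot was saturated for Col1a2 and Timp3. A Col3a1 probe without the letters was at -6.32, 1.70, -6.48 and -0.11. With saturated spots and such probes left out, 25 matrix genes had medians moved of 100% in line 1 and 45.4% in line 2.

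The mesenchymal regulators followed the same division. All 14 that were higher in MEF had more signal in line 2, as did 1714 of all 2323 genes higher in MEF. The medians moved of the 14 were 99.2% in line 1 and 48.6% in line 2. Prrx1, a limb mesenchyme homeobox gene, was at -3.22 in ES, 4.26 in MEF, -3.1 in line 1 and 2.91 in line 2, and Twist2, a basic helix-loop-helix factor gene, at -7.18, 4.90, -3.73 and 0.89. Of 12 contractile genes the medians were 96.0% and 66.2%. The myosin light chain gene Myl9 was at -4.64 in ES, 5.24 in MEF, -4.40 in line 1 and 1.19 in line 2. The probes of the smooth muscle actin gene Acta2 disagreed. The one used was at 0.84, 3.99, 3.05 and 1.51, higher in line 1, and another at -4.49, 5.03, -2.47 and 0.44, higher in line 2. Cnn1, which codes for the actin-binding protein calponin, was at -2.83 in ES, 2.34 in MEF, -2.29 in line 1 and -1.50 in line 2. It was the 1 of 16 measured contractile genes that fell against MEF (limma), where 0.807% of all genes did. That call was lost in 10 of 22 alternatives.

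Interferon-stimulated genes and genes of class I antigen presentation had moved little from MEF in line 2. Of 30 interferon-stimulated genes 23 were higher in MEF, with medians moved of 85.6% in line 1 and 26.6% in line 2, and 17 against 1 had moved by at least 75%. Their median signal on the linear scale was 5.86% of MEF in line 1, 38.3% in line 2 and 1.79% in ES. Line 2 was the higher line for 22 of 23, beside 1714 of all 2323 genes higher in MEF. Ifit1, which binds foreign RNA, was at -7.31 in ES, 3.28 in MEF, -3.1 in line 1 and 2.90 in line 2. Rtp4 was at -7.28, 3.92, -3.88 and 2.08, and the microtubule-associated gene Ifi44 at -4.57, 3.72, -3.83 and 2.41. In the 7 embryonic lines the percent moved ran from 4.5 to 100 for Ifit1 and from 33.6 to 100.2 for Ifi44. Line 2 was at 4.3% for Ifit1, just below the lowest of the 7, and at 15.8% for Ifi44. The exception was Oas1a, an RNA-sensing synthetase gene, at -2.85 in ES, 0.47 in MEF, 0.23 in line 1 and -1.30 in line 2.

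All 6 class I pathway genes higher in MEF had more signal in line 2. Over the 5 with no saturated spot the median was 77.1% of MEF against 18.1% in line 1 and 19% in ES. B2m, the invariant light chain of class I molecules, was at 2.5 in ES, 5.15 in MEF, 2.47 in line 1 and 4.94 in line 2, with the MEF and line 2 spots saturated. A B2m probe with no saturated spot was at 2.18, 4.26, 2.72 and 3.57. The immunoproteasome gene Psmb8 was at -0.95, 2.47, -0.33 and 3.35, above MEF in line 2. Class I heavy chain genes such as H2-Q10, at 1.78, 4.17, 2.34 and 3.80, have near-identical copies that can share a probe. Against MEF, 0 of the 30 interferon-stimulated and 0 of the 12 class I genes passed in limma, which takes both lines together and called 0.807% of all genes lower. Over all 2323 genes higher in MEF the median signal was 14.4% of MEF in line 1 and 26.9% in line 2. For 1714 of them line 2 was the higher line. These shares are descriptions of single arrays, with no test.

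**Figure D2:**
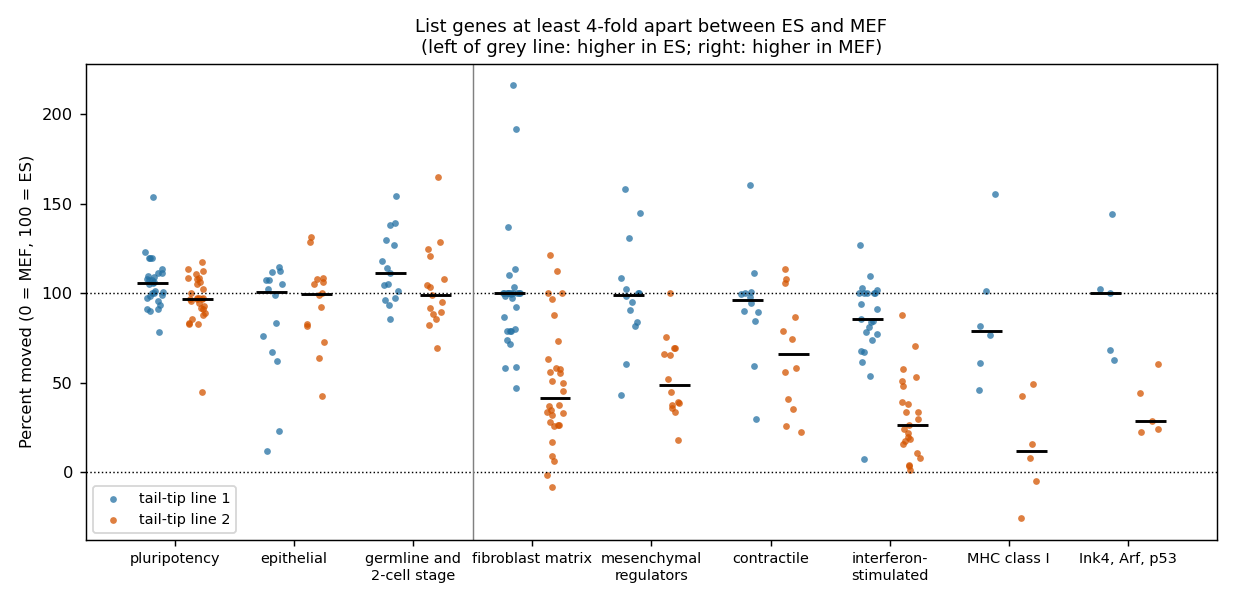
Percent moved of every list gene at least 4-fold apart between ES and MEF, in tail-tip line 1 (blue) and line 2 (orange), with black bars for the medians. The lines overlap for the pluripotency, epithelial and germline lists, and line 2 lies lower for the lists higher in MEF, with medians of 41.5% for matrix, 26.6% for interferon-stimulated and 11.8% for class I genes.

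Genes of the Ink4, Arf and p53 pathways were also nearer to MEF in line 2. Cdkn2b, which codes for the inhibitor p15, was at -3.30 in ES, 2.83 in MEF, -1.35 in line 1 and 1.34 in line 2. Cdkn2a, the gene of p16 and Arf and a target of Bmi1, was at -3.12, 0.33, -1.83 and -0.44. The 5 genes of this list that were higher in MEF, which besides Cdkn1a include the death receptor gene Fas and the desmosome gene Perp, had moved by a median of 100% in line 1 and 28.8% in line 2. Of 9 mitosis and replication genes higher in ES, 6 had moved by at least 75% in line 1 and 4 in line 2. The separase gene Espl1 was at 4.46 in ES, -3.26 in MEF, -0.48 in line 1 and -0.65 in line 2, and the embryonic lines spanned only 30.3 to 51.2% moved for it.

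Genes of body position, which are known to differ between fibroblasts of different sites, had a lower median in line 1 than its 87.0% over all genes higher in MEF. The 20 Hox and limb genes higher in MEF had medians of 74.3% and 54.6%, against 88.0% in the embryonic lines. Tbx15 was at -3.93 in ES, 3.69 in MEF, -1.19 in line 1 and 0.43 in line 2, and Hoxd9 at -2.94, 2.73, 0.75 and 0.94, although another Hoxd9 probe was at -3.40, -0.84, -3.66 and -3.37, near ES in both lines. Hoxd10 was at -7.16 in ES, -2.88 in MEF, -2.32 in line 1 and -4.19 in line 2. The posterior gene Hoxd13 was at -2.50 in ES, 2.36 in MEF, -0.07 in line 1 and -1.29 in line 2. Of the 44 measured genes of the list 1 fell against MEF (limma), where 0.807% of all genes did: Hoxc8, at -1.37 in MEF and not well above background on the other 3 arrays. Tail-tip fibroblasts themselves were not analysed here.

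Imprinted genes went in different ways. The maternally expressed H19 was at -1.90 in ES, 3.74 in MEF, -2.19 in line 1 and 3.80 in line 2, and its paternally expressed neighbour Igf2 at -1.28, 3.88, -1.62 and 2.79. For these genes line 1 matched ES and line 2 stayed near MEF. In the Dlk1-Dio3 cluster on chromosome 12, whose maternal transcripts are silenced in some mouse iPS lines, Meg3 and Rian stayed near or above MEF in both tail-tip lines. Meg3 was at -3.22 in ES, 3.01 in MEF, 2.20 in line 1 and 2.67 in line 2, and Rian at -7.26, -1.69, -0.54 and 0.18. A further transcript of the cluster, Mirg, was at -3.19, -0.95, -2.04 and -0.44, with 48.6% moved in line 1 and -22.8% in line 2. Of 5 Meg3 probes, 4 had both lines nearer to MEF, and the fifth showed no difference between ES and MEF, at -3.68 and -3.71. Of the 7 embryonic lines, 5 had Meg3 between 2.23 and 3.41, and Bmi1-Oct4 line 2 and purmorphamine-Oct4 line 1 were at -6.13 and -4.51. The paternally expressed Dlk1 had moved by 93.1% and 83.5% in the tail-tip lines.

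Genes kept at the MEF level, defined as moved by under 25% in both lines, numbered 282 of the 3103 higher in ES (9.09%) and 81 of the 2323 higher in MEF (3.49%). Of the 81, Meg3 had the largest gap, followed by 2 genes of the Y chromosome. The RNA helicase gene Ddx3y was at -3.64 in ES, 2.36 in MEF, 2.39 in line 1 and 2.22 in line 2, and the translation factor gene Eif2s3y at -4.39, 0.84, 1.16 and 1.59. They were not particular to the tail-tip lines. Over the embryonic lines Ddx3y ran from -6.74 to 2.60 and Eif2s3y from -7.01 to 1.85, both lowest in purmorphamine-Oct4 line 1. The other 2 Y genes higher in MEF had moved further in at least 1 line. Kdm5d was at -7.26 in ES, 1.37 in MEF, -3.13 in line 1 and -1.29 in line 2, and Uty at -5.05, 0.09, 0.04 and -1.42. The centriole gene Ccsap was at -0.30 in MEF, -0.74 in line 1 and -0.50 in line 2, and not well above background in ES. A further Ccsap probe was at -4.44, -3.62, -2.84 and -2.07, with a small gap between ES and MEF. Rgs5, a pericyte gene, was at -1.31 in MEF, 0.29 in line 1 and -1.61 in line 2, and had moved by 30.8 to 100% in the embryonic lines (limma against the other iPS groups, unadjusted p = 0.00230, adjusted p = 0.640). Il17d was at -1.32 in MEF, -1.59 in line 1 and -1.77 in line 2, Fam20a at -1.23, -1.50 and -1.70, and Brdt, a testis bromodomain gene, at -1.67, -2.26 and -2.08. None of the 3 was well above background in ES. With normexp background Brdt had moved by 28.5% in the mean of both lines and was not kept.

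Further kept genes of the MEF side, named after their values were seen, were the Wnt effector Lef1 with 3.6 and 2.1% moved, the kidney and gonad factor Wt1 with -2.2 and 14.3%, the stress factor Atf3 with -13.4 and -39.2% and the homeobox gene Alx1 with -15.8 and -28.5%. Another Lef1 probe was at -2.08 in ES, 0.22 in MEF, -0.79 in line 1 and -0.07 in line 2, with line 1 further from MEF than on the probe used. Of the 81 genes, 36 had a median under 25% in the 7 embryonic lines as well, 6 had one of at least 75%, and 2 were under 25% in all 7. In the tail-tip lines the 81 genes thus held both genes that the embryonic lines kept too and genes that those had lost. None was called against the other iPS groups (limma, 13 of 81 at an unadjusted p under 0.05, and 0 of 25352 genes called over the whole array, with 1593 at an unadjusted p under 0.05).

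Of the 282 genes of the ES side that stayed at the MEF level, 102 were not well above background in either tail-tip line. The calcium-binding gene Cabp7 was at 0.92 in ES, -8.06 in MEF, -5.24 in line 1 and -7.78 in line 2, well above background in ES and line 1, and Bmp10, a heart growth factor gene, at -0.50, -8.86, -8.24 and -6.39, in ES alone. Skint7 was at -0.34 in ES and Csn1s2a, a milk casein gene, at -0.96, and neither was well above background on the other 3 arrays. Adam1b was at 1.04, -7.58, -4.94 and -7.86, but its other 2 probes showed no such gap between ES and MEF. Cd300c2 was measured on all 4 arrays, at 0.08, -4.89, -4.30 and -3.98, but another probe was at -4.47, -6.08, -4.91 and -3.85, near or past ES in the lines. With the probes of a gene averaged Cd300c2 had moved by 34.8% and was not kept. Of the primitive endoderm list 2 of 4 genes higher in ES were kept, the vitamin B12 receptor gene Cubn at 2.51, -1.51, -0.99 and -1.51 and the endoderm factor gene Sox17 at -1.48, -8.89, -4.51 and -4.67. The other probes of Sox17 were not well above background in ES. The embryonic lines were alike in this class, with a median under 25% for 225 of the 282 genes and all 7 lines under 25% for 85. These shares rest on the same ES and MEF arrays. Normexp background left 182 kept genes in all and 34 on the MEF side, each array's own floor left 171 on the ES side, and with no floor the MEF side had 169.

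Genes beyond ES by at least 2-fold in both lines numbered 104 on the ES side (3.35%) and 10 on the MEF side (0.43%). Of the 104, 58 had a median at least 2-fold beyond ES in the 7 embryonic lines too. The melanosome transport gene Mreg was at -1.58 in ES, -5.17 in MEF, 4.87 in line 1 and 3.90 in line 2. The peptide transporter gene Slc15a1 was at -0.40, -5.01, 3.42 and 2.66, and the ferritin-like gene Fthl17e of the X chromosome at -2.09, -4.42, 1.07 and 0.77. The RNA export factor gene Nxf3, also X-linked, was at -3.02 in ES, 0.34 in line 1 and -0.39 in line 2, and not well above background in MEF. For Slc15a1, Fthl17e and Nxf3, both tail-tip lines were above all 7 embryonic lines, of which the highest were at 2.12, -0.46 and -0.88. These genes were picked for lying far beyond ES in both tail-tip lines, and the share of all genes with such an order was not counted. Against the other iPS groups the adjusted p of Slc15a1, Fthl17e and Nxf3 in limma was 0.680, 0.680 and 0.583, so none passed. Tceal7 was at -2.91 in ES, 0.68 in line 1 and -0.51 in line 2, Rhox13, a homeobox gene, at -1.93, 1.38 and 0.42, and the lymphotoxin gene Ltb at -1.77, 1.73 and 0.81.

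On the MEF side, where 1318 genes were far enough above the floor to show it, the genes that fell below ES in both lines included the membrane fusion gene Stx2, at -2.48 in ES and 0.37 in MEF but -7.60 in line 1 and -4.76 in line 2, and the cartilage factor gene Sox6, at -4.03 and -0.64 but not well above background in either line. The placental prolactin gene Prl3d1 was at -4.07 in ES and -0.61 in MEF and was likewise below the limit in both lines. The other probes of Sox6 did not show its fall. One was well above background in both lines and not in ES, at -6.74 in ES, -6.44 in MEF, -4.81 in line 1 and -5.40 in line 2. The remaining Sox6 probes were well above background in line 1. The bone protease gene Ctsk was at -3.71 in ES, 1.14 in MEF, -5.98 in line 1 and -4.80 in line 2.

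**Figure D3:**
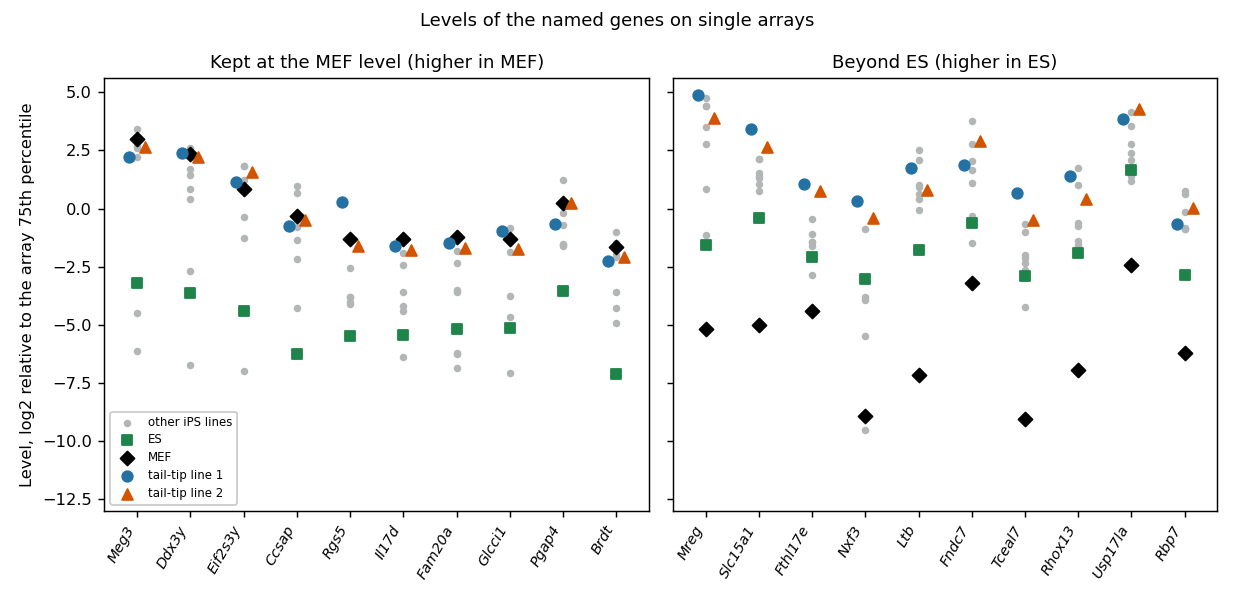
Levels of the 10 genes with the largest gap among those kept at the MEF level (left, genes higher in MEF) and of the 10 furthest beyond ES (right, genes higher in ES), on the ES, MEF and tail-tip arrays and the 7 other iPS lines. On the left the tail-tip lines lie by MEF, as for Meg3 at 2.20 and 2.67, and on the right above ES, as for Mreg at 4.87 and 3.90; grey points show that other lines spread between these levels.

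Among the 104 genes beyond ES, a part was measured by array probes that share a short repeat. A probe is a DNA strand of 60 bases made to capture 1 transcript, though some can also bind related ones. Of the 104 probes, 36 (34.6%) held at least 1 of the 6-letter runs TCTGTC or CTGTCT or TGTCTG or GTCTGT, which are the 4 frames of a TCTG repeat and can overlap each other. The same runs stood in 6.86% of the probes of all 25415 genes, 6.10% of all 41174 probes, 8.77% of the genes higher in ES, 10.1% of those at the ES level in both lines, 3.55% of the 282 genes kept on the ES side and 12.3% of the 81 kept on the MEF side. The runs were chosen after these values were seen, so the shares carry no test. Read on the opposite strand, the runs stood in 6.73% of the 104 and 6.35% of all genes tested. The stretches below are 30 bases of the probe used for each of 6 such genes, 5′ to 3′ in the letters of the deposited array files. The longest run of the repeat is in capitals, or the first one where a probe has several of that length. The Acer2 stretch ends in a second run as long, left in lower case. These stretches are shown because the genes, on 4 chromosomes, share the letters.
Cgn: agcaggtgtctTCTGTCTGTgagtgatgtt
Sdhaf3: aggtagttaaaCTGTCTGTCggaaataaag
Acer2: gctTGTCTGTaatctgttgtgtatctgtct
Ppp1r16b: acgatgttgggaCTGTCTGaactgtcgcta
Dmbx1: acagcatgaatcTCTGTCctgtatatctgt
Fndc7: atggatctcgcaGTCTGTtctctatgctct

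By the positions in the array files, which use the mm7 build, these probes lie at chr3:94649756-94649815 for the tight junction gene Cgn, chr6:6994267-6994326 for Sdhaf3, chr4:86338452-86338511 for the ceramidase gene Acer2, chr2:158506624-158506683 for Ppp1r16b, chr4:115291617-115291676 for the homeobox gene Dmbx1 and chr3:108673650-108673709 for Fndc7. The strand was minus for Cgn, Dmbx1 and Fndc7 and plus for the other 3, and the files do not say whether a probe is in an exon or UTR. For 5 of the 6 genes another probe of the same gene, without these runs and well above background on all 4 arrays, could be set beside it. The first 30 bases of 3 of those are given for comparison.
Cgn, other probe: agacctctgaggagacagggcattggcaga
Sdhaf3, other probe: ttttggacagtatgaacaatgcatgatcaa
Acer2, other probe: ggaggactctccacgcccgcctcaggtgcc

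For the genes shown with both probes, the probes gave different answers. The Cgn probe with the repeat was at 3.67 in ES, -0.51 in MEF, 5.08 in line 1 and 5.18 in line 2, and the other one shown at -1.34, -2.75, -1.96 and -1.96. For Sdhaf3 the values were 3.31, -1.15, 4.39 and 4.92 with the repeat and -1.67, -5.76, -2.61 and -2.80 without it, and for Acer2 they were 0.31, -2.51, 1.89 and 3.69 against -0.19, -1.79, -0.04 and 0.51. For Cgn, Sdhaf3 and Acer2 only the probe with the repeat lay at least 2-fold beyond ES in both lines. That probe was the one by which each gene entered the set, so its place beyond ES was fixed beforehand. The other probes were not chosen that way. Of the 36 genes 15 had another measured probe, 24 probes in all and 0 with the runs. Of these 24, 15 were well above background in both lines and 1, for Sema3e, was at least 2-fold above ES in both. Among the 68 genes without the runs, 27 had 29 other probes, 2 of them with the runs, of which 24 were well above background in both lines and 11 at least 2-fold above ES in both. The latter included the atrial peptide gene Nppa, the egg coat gene Zp3, the retinol-binding gene Rbp7 and the X-linked gene Xlr.

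The 36 probes rose and fell together over the arrays. Their median correlation with each other over the 12 arrays was 0.95, against 0.71 for the 68 without the runs, which also share these arrays. Both sets were chosen for their order on the ES, MEF and tail-tip arrays, which are among the 12. Part of each correlation was therefore fixed by that choice. Their median level was 1.18 in ES, -2.38 in MEF, 2.79 in line 1 and 4.29 in line 2, and among the embryonic lines it was -0.02 in oxysterol-Oct4 line 2 and 5.01 in oxysterol-Oct4 line 1. The 68 other genes had medians of -1.90 in ES, -5.73 in MEF, 0.38 in line 1 and -0.20 in line 2. So line 2 was the higher line for the probes with the repeat and line 1 for the rest. Over all genes tested, the share at least 2-fold above ES in both lines was 8.51% where the longest run of the repeat had 4 letters or fewer, 10.7% at 6 letters, 13.1% at 7, 30.2% of 96 genes at 8 and 13 of 68 genes at 9 or more. The share was lower at 9 or more letters than at 8, so it did not rise steadily with the length of the run. What makes these probes move together was not tested. With all such probes left out, 70 genes of the ES side were beyond ES, and of the 906 genes higher than MEF 64 (7.06%) sat on such probes.

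**Figure D4:**
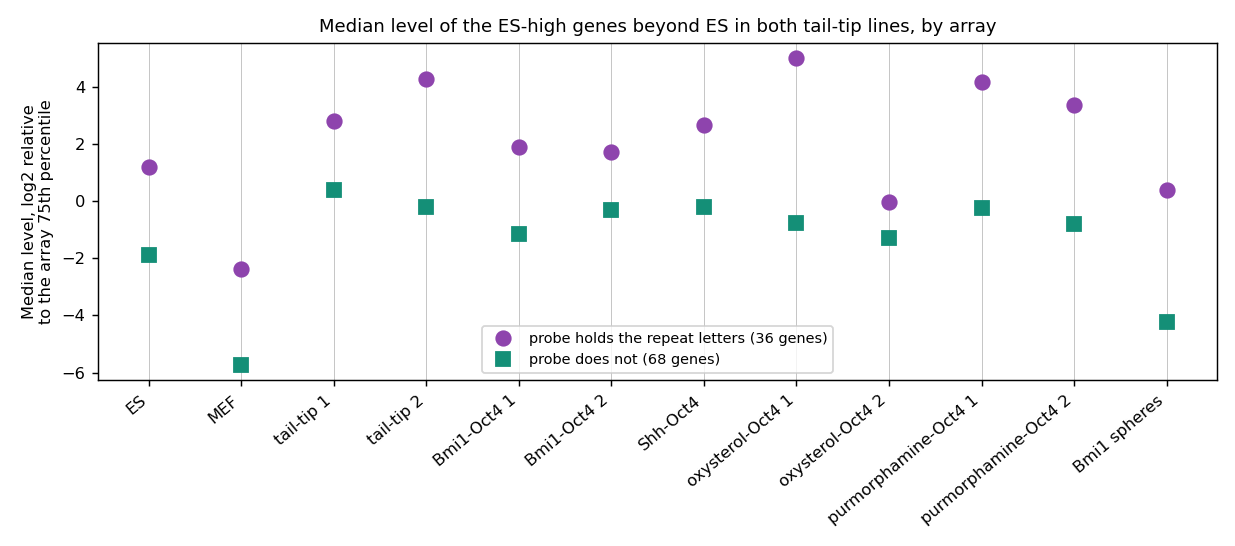
Median level on each of the 12 arrays of the 104 genes beyond ES in both tail-tip lines, split into the 36 whose probe holds the TCTG repeat letters (purple circles) and the 68 whose probe does not (green squares). The circles range from -2.38 in MEF to 5.01 in oxysterol-Oct4 line 1 and reach 4.29 in tail-tip line 2, while the squares stay between -1.28 and 0.38 on the iPS arrays.

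Of the 68 genes without the repeat 10 (14.7%) lay on the X chromosome, against 3.75% of genes tested and 3.07% of those higher in ES. They were Dmrtc1c1, Nudt11, Rhox13, Wnk3, Tceal7, Nxf3, Fthl17e, Arxes1, Kdm6a and Xlr, a group put together after the values were seen and given with no test. Kdm6a, a histone demethylase gene, was at -1.78 in ES, -3.88 in MEF, -0.32 in line 1 and -0.75 in line 2. The 4 probes of Xist, the RNA that coats an inactive X chromosome, disagreed with each other. The brightest was at 2.82 in ES, -0.10 in MEF, 3.29 in line 1 and 3.42 in line 2, and another at -7.15, -0.55, -2.37 and -3.06.

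The genes at least 8-fold apart between ES and MEF that differed most between the lines were chosen for that difference and are given as a description. On the MEF side the chemokine gene Ccl5 was at -0.80 in ES, 2.53 in MEF, -1.01 in line 1 and 4.12 in line 2, and Tslp, an epithelial cytokine gene, at 1.27 in MEF, -0.38 in line 2 and not well above background in line 1. The stromal chemokine gene Cxcl12 was at -1.18, 2.71, -4.64 and 0.31, the actin-severing gene Gsn at -0.15, 3.28, -3.00 and 1.37 and the early growth response gene Egr2 at -3.45, 0.09, -3.23 and 1.66. Line 1 was below or near ES for all of these, and line 2 above MEF for Ccl5 and Egr2. In the other direction Leprotl1 was at -0.51 in ES, 3.33 in MEF, 2.07 in line 1 and -2.89 in line 2, and the protocadherin gene Pcdhb16 at -4.51, -1.31, -2.24 and -4.27. The other Leprotl1 probes were at -0.3 and -2.66 in line 1 and -2.12 and -3.35 in line 2, a smaller difference. Another Pcdhb16 probe was at -4.95, -4.38, -4.24 and -3.94, with a small gap between ES and MEF and line 2 the higher line. Of the genes higher in MEF, 178 had moved by under 25% in line 2 and at least 75% in line 1, and 28 the other way. On the ES side the numbers were 50 and 54. There line 1 was ahead for the TGF-beta repressor gene Tgif2, at 1.85 in ES, -1.46 in MEF, 2.98 in line 1 and 0.00 in line 2, and for Chek1, a checkpoint kinase gene, at -0.65, -3.96, -0.27 and -3.04. The Chek1 probe holds the TCTG repeat letters, and another probe without them was at -1.08, -4.78, -0.24 and -2.09, with a smaller difference between the lines. Line 2 was ahead for Hrc, a calcium-binding gene, at -0.76, -6.06, -5.17 and -0.47, and for the antithrombin gene Serpinc1, at 1.33, -1.99, -3.07 and -0.44. Another Serpinc1 probe was at 0.02, -1.97, -1.14 and -0.37, with a smaller difference between the lines.

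Against ES, 0 of 25370 genes passed in limma, with 1601 at an unadjusted p under 0.05 where 1268 would be met by chance and a smallest adjusted p of 0.155. Against the mean of the other 4 iPS groups 0 of 25352 passed (1593 at an unadjusted p under 0.05, smallest adjusted p 0.281). Against the 2 oxysterol-Oct4 lines from embryonic fibroblasts 0 of 25400 passed (1649 at an unadjusted p under 0.05, smallest adjusted p 0.393). These fits had 4 residual degrees of freedom, and the median 95% interval of a gene reached 3.78-fold either way against ES and 2.41-fold against the other groups, so differences of that size were not detectable for most genes. In a model of 5 classes, in which the 7 embryonic lines form 1 class, 1 gene passed against them, the centrosome gene Cep112. It was at -3.28 in line 1, -2.96 in line 2 and -4.37 in MEF (limma adjusted p = 0.0360). Among the 7 embryonic lines it was well above background in 2 only, so the size of the difference is not given. With slide as a fixed block in that model, 1 gene passed against ES, listed as AK047809, at -1.99 in ES and not well above background in either tail-tip line, at least 18.5-fold lower (limma adjusted p = 0.0432). Over all genes the levels of line 1 correlated with ES at r = 0.922 and with MEF at 0.816, and those of line 2 at 0.911 and 0.860, across genes, which are not replicates.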

How the data were processed

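RNA of 12 mouse samples was measured on 12 one-colour Agilent arrays. The deposited intensity values are processed signals, background-subtracted and not scaled between arrays, written by Agilent Feature Extraction 9.5.3.1 per the file headers. The deposited flags for spots well above background, saturated or outlying come from the same software, per the file headers. The authors' later normalization is not given in the sources used here.

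Outlier spots were left out, replicate spots averaged as log2 signal, and the 75th percentile over gene spots was subtracted. Probes well above background on at least 1 array were kept, and the brightest probe stood for a gene, which gave 25415 genes, 8309 of them with several probes. RefSeq tables named 22944 of 41174 probes by accession and 9772 by symbol or synonym. The deposited name was kept for 8458. No counts exist, so the number of arrays limits the precision.

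limma 3.58.1 in R 4.3.3 was fitted to 8 groups and 12 arrays with 4 residual degrees of freedom and Benjamini-Hochberg adjustment over all genes. The fit was tested on simulated data. Named genes are Pou5f1, Sox2 and Nanog, those with the largest gap among kept genes (10 a direction), the largest overshoot (10), the largest difference between lines among genes at least 8-fold apart (10), the largest called change of genes well above background in the higher group (5), and up to 4 of each list by gap, leaving out symbols that are accessions or contig names. Some genes of this rule are given only within counts. Others were named after their values were seen. The members, the 24 gene lists and the probe letters were chosen with earlier results of these data known.

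A lower bound of a fold sets the brighter group's mean against the floor of the dim array, which is the lowest signal among its probes well above background. Alternatives were normexp background, quantile normalization, scaling on detected probes, other filters, floors and thresholds, averaging a gene's probes, a trended prior, slide as a block, other groupings, a clone-number block and leaving out each line. Leaving out repeat probes and a higher floor were added after the data were seen.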

Additional observations from a re-analysis of the deposited data

How the results depend on the processing

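The median percent moved kept its value within the spread between lines in the 12 alternatives tried for each line and direction, with 2 exceptions: for genes higher in ES line 2 came to 82.3% with scaling on probes above background on all arrays and 82.5% with a gap of at least 8-fold. On the MEF side line 1 ran from 81.5 to 92.2% and line 2 from 52.0 to 61.6%. The difference from the embryonic lines on that side ran from -28.9 points without line 1 to 0.992 without line 2, where it reversed (exact permutation p = 0.875), and from -7.19 to -1.51 on the ES side. Genes kept at MEF in both lines, 363 in the main setting, numbered 182 with normexp background and 136 with an 8-fold gap, and from 651 to 842 when 1 line was used alone. Genes beyond ES, 114 in the main setting, numbered 69 with normexp, 174 with no floor, 57 with an 8-fold gap, 16 at a 4-fold limit, 80 without the repeat probes and from 218 to 412 with 1 line alone.

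The 906 higher and 205 lower genes called against MEF became 378 in all with 5 classes and slide as a fixed block and 0 in a fit of the 4 arrays alone, which has 1 residual degree of freedom (4896 at an unadjusted p under 0.05). Leaving out 1 line gave 276 to 1152, with 276 without tail-tip line 1, 552 without tail-tip line 2 and 597 without either purmorphamine-Oct4 line. A group left with 1 sample was assumed to vary like the others. The residual signal of line 2 was also taken without saturated spots and repeat probes, added after the data were seen: over all genes higher in MEF it was 26.8% against 26.9% with them. With the clone number as a replicate block 637 genes passed (544 higher, 93 lower). The numbers do not pair the samples: deviations of equal-numbered lines correlated between -0.16 and 0.24. Against ES and the other groups the count was 0 in all alternatives but 1 each: 1 gene against ES with 5 classes and slide, and 1 gene against the other lines with 5 classes. Of the called genes followed singly, 750 values kept the call, 169 lost it and 0 turned in direction. The share of spots well above background ran from 58.41 to 79.99% over the arrays; how far dim probes limit the calls was not tested, and 1027 genes passed against MEF where detection on at least 4 arrays was required.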
